A study of Mus musculus with 6 samples.

Results

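The genes described here are 31 smooth muscle contractile genes, measured in dissected prostates of 4-week-old mice. They were chosen by a list of gene names, with no threshold on their values. For each gene the array probe set with that single gene symbol and the highest mean over the 6 arrays was used. All 31 were measured, out of 19938 genes followed on the array. The 2 groups were AR3 transgenic mice (n = 3) and their wild-type littermates (n = 3), with 1 array of prostate RNA per mouse. AR3 is a splice variant of the androgen receptor that lacks the ligand-binding domain. The promoter that drives the transgene, the number of founder lines and the strain are not stated in the labels.

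Smooth muscle surrounds the prostatic ducts and contracts to expel secretion. Its thin filaments carry smooth muscle actins, its thick filaments the heavy chain Myh11, and contraction starts when the kinase Mylk phosphorylates the myosin light chain. Most of these genes are driven by the serum response factor Srf, which binds a DNA motif called the CArG box, with its coactivator myocardin (Myocd). The contractile state is therefore often read from Acta2, Actg2, Myh11, Cnn1 and Des together.

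The CArG box is CC, then 6 bases that are each A or T, then GG, and it reads the same on both strands. RefSeq promoter windows (GRCm38.p6, 300 bases, ending 50 bases after the gene start) matched 27 of the 31 genes. Actg2, Tagln, Myh11 and Myocd had no entry. An exact CArG box lay in the windows of 5 of the 27 genes (18.5%), namely Srf, Myl9, Myl6, Vcl and Filip1l. The share among all 27025 genes with a window was 1.81%. With up to 1 mismatch the shares were 13 of 27 (48.1%) and 23.8%. These matches describe letters in a short window, and genes with several starts had more than 1 window. The stretches of 30 bases around the exact boxes are shown because Srf is itself one of the 31 genes and a regulator of many of the others. The box is in capitals. They lie at chr17:46556225-46556254 and chr17:46556205-46556234 for Srf (minus strand), chr2:156775293-156775322 for Myl9 (plus strand), chr10:128493040-128493069 for Myl6 (minus strand) and chr16:57549170-57549199 for Filip1l (plus strand).
Srf distal: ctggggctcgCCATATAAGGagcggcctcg
Srf proximal: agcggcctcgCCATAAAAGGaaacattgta
Myl9: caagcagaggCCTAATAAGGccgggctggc
Myl6: gctcttacttCCTTATATGGgcaggaccta
Filip1l: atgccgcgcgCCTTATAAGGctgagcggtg

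The 250 bases before the gene start are shown for Acta2, the smooth muscle α-actin, and for Kcnmb1, Cav1 and Vcl, which had the smallest p-values of the 31 genes in the genotype comparison below. Cav1 had 2 annotated starts. Capitals mark CArG boxes with up to 1 mismatch. Acta2 (chr19:34255374-34255623, minus strand) held 2 boxes with 1 mismatch each, Vcl (chr14:20929148-20929397, plus strand) held 1 exact box, and Kcnmb1 (chr11:33962763-33963012, plus strand) and both Cav1 windows (chr6:17306085-17306334, plus strand, and chr6:17307390-17307639, plus strand) held none.
Acta2: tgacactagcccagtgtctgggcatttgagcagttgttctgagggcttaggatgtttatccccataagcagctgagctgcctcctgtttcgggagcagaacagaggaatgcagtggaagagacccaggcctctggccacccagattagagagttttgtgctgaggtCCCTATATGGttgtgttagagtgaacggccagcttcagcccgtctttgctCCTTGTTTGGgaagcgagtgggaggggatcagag
Vcl: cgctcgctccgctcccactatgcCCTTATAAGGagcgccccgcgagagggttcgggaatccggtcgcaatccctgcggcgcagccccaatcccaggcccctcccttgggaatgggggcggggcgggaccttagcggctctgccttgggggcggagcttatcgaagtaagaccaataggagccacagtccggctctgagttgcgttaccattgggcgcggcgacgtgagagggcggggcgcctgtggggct
Kcnmb1: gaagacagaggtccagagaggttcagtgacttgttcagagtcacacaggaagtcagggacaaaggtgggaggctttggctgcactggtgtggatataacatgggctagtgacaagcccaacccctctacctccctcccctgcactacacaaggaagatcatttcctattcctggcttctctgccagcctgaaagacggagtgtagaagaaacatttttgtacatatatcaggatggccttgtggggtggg
Cav1 first: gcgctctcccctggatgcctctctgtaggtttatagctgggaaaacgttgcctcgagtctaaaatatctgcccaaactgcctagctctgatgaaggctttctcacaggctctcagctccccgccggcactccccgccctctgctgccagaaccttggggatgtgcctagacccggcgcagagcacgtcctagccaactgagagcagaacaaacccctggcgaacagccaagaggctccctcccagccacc
Cav1 second: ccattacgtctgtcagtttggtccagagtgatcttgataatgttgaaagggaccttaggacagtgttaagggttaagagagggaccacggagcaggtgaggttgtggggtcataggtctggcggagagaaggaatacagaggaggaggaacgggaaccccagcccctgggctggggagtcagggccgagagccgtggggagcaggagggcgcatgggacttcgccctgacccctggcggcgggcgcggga

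None of the 31 genes passed the threshold between AR3 transgenic and wild-type prostates (limma, Benjamini-Hochberg adjusted p of 0.05 over 28944 probe sets): 0 were higher, 0 lower and 31 not past it. Over all genes, 1.64% passed it, 1.18% higher and 0.456% lower, and over all probe sets 1.47%, 1.05% higher and 0.415% lower. In bulk tissue, fewer smooth muscle cells and less of these RNAs per cell cannot be told apart. The smallest adjusted p among the 31 was 0.28, for Kcnmb1. At an unadjusted p under 0.05 there was 1 gene of the 31, Kcnmb1, which was higher, against 12.2% of all genes in either direction and 6.91% higher. The median log2 change was 0.06, against 0.01 over all genes, where a change is AR3 transgenic minus wild-type on log2(intensity + 16). The changes ran from −0.22 to 0.32. By sign alone 24 genes lay higher and 7 lower, against 53.9% higher among all genes. That balance depended on single mice: without AR3 transgenic mouse 1 the median was 0.17 with 29 genes higher, and without wild-type mouse 2 it was 0.13 with 29 higher. Without AR3 transgenic mouse 2 or 3 it was 0.00 and −0.01, each with 15 genes higher. Without wild-type mouse 1 or 3 it was 0.01 and 0.04, with 16 and 20 genes higher.

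An interval of the difference was computed for each gene by itself, not jointly over the 31. The 95% interval of the log2 change lay within 1 either way, a factor of 2, for all 31 genes, and within 0.5 either way for 27 of them. The lowest bound was −0.60 for Des and the highest 0.70 for Cav1. In 28 of the 31 genes the spread among the 3 mice of each genotype, as the log2 range, was larger than the difference between the genotypes. The same held for 64.3% of all genes. All 31 genes lay above the background scale on every array. That scale was the 95th percentile of 1035 olfactory receptor probe sets, which lay between 66.9 and 91.9 on the 6 arrays.

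**Figure D1:**
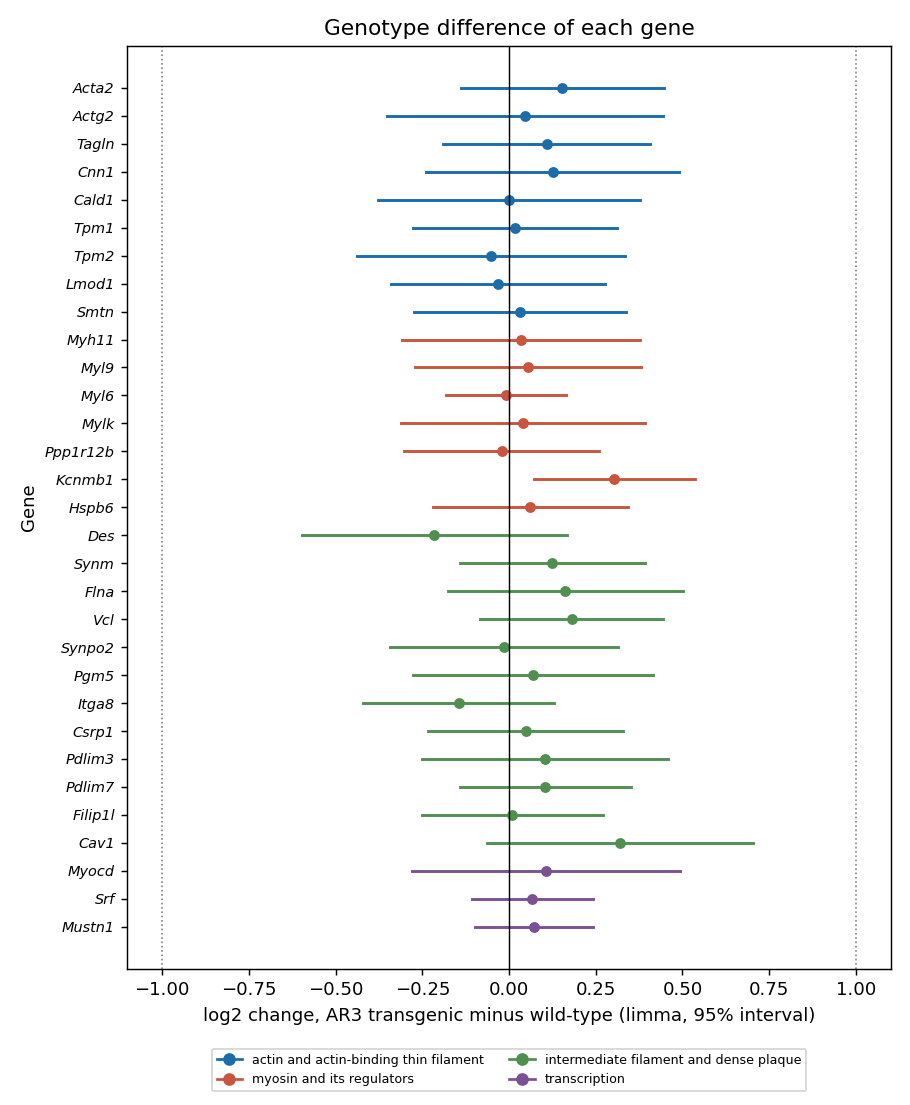
Log2 change of each of the 31 genes (x axis, AR3 transgenic minus wild-type, limma) with its 95% interval, coloured by role; dotted lines mark a change of 1 either way. The interval of Kcnmb1 alone lies to one side of 0, at 0.07 to 0.54, and its adjusted p was 0.28.

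What the genes shared was their order over the mice. Within the AR3 transgenic group, mouse 1 had the lowest value in 27 of the 31 genes, while it was lowest in 34.7% of all genes. Within the wild-type group, mouse 2 had the highest value in 28 of the 31, against 28.6% of all genes, and mouse 1 the lowest in 21, against 50.1% of all genes. The mean log2 level of the 31 genes was 9.28, 9.59 and 9.60 in AR3 transgenic mice 1, 2 and 3, and 9.30, 9.59 and 9.40 in wild-type mice 1, 2 and 3. Relative to the mean over the 6 mice this was 88.3%, 109.5% and 110.1% in AR3 transgenic mice, and 89.5%, 109.5% and 95.9% in wild-type mice. Each genotype thus held a mouse with low and a mouse with high values, and the groups overlapped. The difference of the 2 group means was 0.06, smaller than the SD between mice of 0.18 in AR3 transgenic and 0.15 in wild-type prostates (n = 3 each). The genes are not independent replicates of this order, since they were read from the same 6 arrays.

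**Figure D2:**
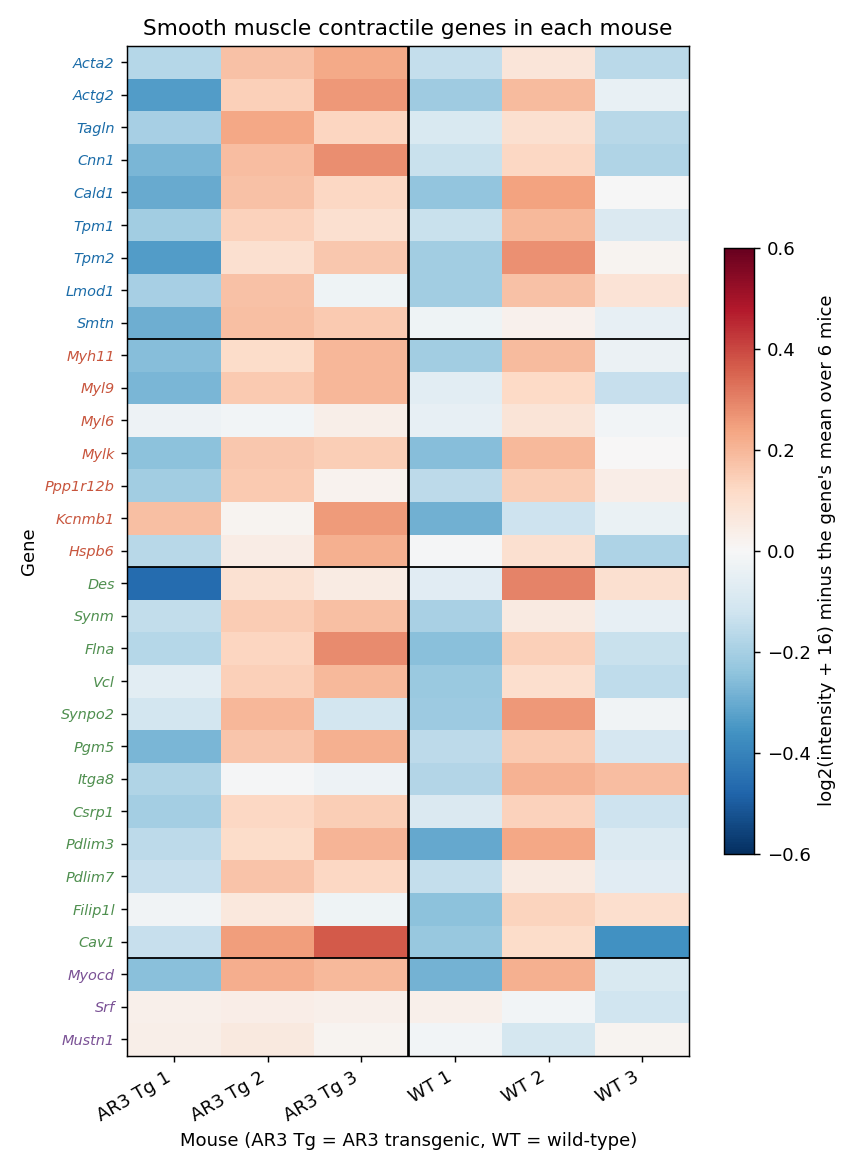
Level of each of the 31 genes (rows, by role) in each mouse (columns) as log2(intensity + 16) minus the mean of that gene over the 6 mice. AR3 transgenic mouse 1 and wild-type mouse 1 are mostly blue (low), AR3 transgenic mice 2 and 3 and wild-type mouse 2 mostly red (high). Kcnmb1, Srf and Mustn1 depart from that order in both genotypes or in the wild-type mice, and Synpo2 and Filip1l in the transgenic mice, where mouse 3 is lowest.

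The thin filament held 9 genes, none past the threshold, with log2 changes from −0.05 to 0.15 and a median of 0.03. Acta2, the smooth muscle α-actin, had intensities of 5121, 6530.2 and 6757 in AR3 transgenic mice 1, 2 and 3, against 5235, 6080.2 and 5156 in wild-type mice 1, 2 and 3. AR3 transgenic mouse 1 lay below all wild-type mice, the other two above them, so the groups overlapped. The log2 change was 0.15 ± 0.13 (SE), with a 95% interval from −0.14 to 0.45 and an adjusted p of 0.68. Actg2, the γ-actin of visceral smooth muscle, had 1061, 1488 and 1614 in AR3 transgenic mice against 1156, 1535 and 1303 in wild-type mice. Its lowest and its highest value were both transgenic, and the log2 change was 0.05 ± 0.17 (SE, adjusted p 0.94).

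Tagln (transgelin), an actin-bundling protein of the calponin family, had 2797, 3774 and 3509 in AR3 transgenic mice, against 3009, 3430.2 and 2858 in wild-type mice. Cnn1 (calponin), which binds actin and slows the myosin ATPase, had 1032, 1428 and 1524 in AR3 transgenic mice, against 1142, 1367 and 1104 in wild-type mice. In both genes AR3 transgenic mouse 1 was the lowest of all 6 and the groups overlapped, with log2 changes of 0.11 and 0.13 and adjusted p of 0.79 and 0.80. The other thin filament genes were no further apart. The log2 change was 0.00 for caldesmon (Cald1), which restrains actomyosin, 0.02 for the tropomyosin Tpm1, −0.05 for Tpm2 and −0.03 for leiomodin (Lmod1), an actin filament nucleator. It was 0.03 for smoothelin (Smtn), a marker of fully contractile smooth muscle. In these 5 genes the 95% intervals reached no further than −0.44 and 0.38.

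Among 7 genes of myosin and its regulators, none passed the threshold, and the median log2 change was 0.04. Myh11, the smooth muscle myosin heavy chain, had 2146, 2773 and 2950.4 in AR3 transgenic mice, against 2219, 2935 and 2505 in wild-type mice. Its group means of 2623 ± 422 in AR3 transgenic and 2553 ± 361 in wild-type prostates (SD, n = 3 each) differed by far less than their spread, with a log2 change of 0.04 ± 0.15 (SE) and an interval from −0.31 to 0.38. The regulatory light chain Myl9 had 1293, 1750.0 and 1803 in AR3 transgenic mice, against 1499, 1704 and 1421 in wild-type mice (log2 change 0.06, adjusted p 0.92). Mylk, the kinase that phosphorylates this light chain, had a log2 change of 0.04, and Ppp1r12b, a targeting subunit of the phosphatase that reverses it, one of −0.02. The small heat shock protein Hspb6, a relaxation-linked phosphoprotein, had 627, 728 and 822 in AR3 transgenic mice, against 703, 757 and 619 in wild-type mice, a log2 change of 0.06. The 7 probe sets of Ppp1r12b had changes from −0.28 to −0.02, with adjusted p of 0.34 or more.

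The essential light chain Myl6, which is also made outside smooth muscle, varied little, with 3027, 3051 and 3164 in AR3 transgenic mice against 2983, 3265 and 3058 in wild-type mice. Its log2 change was −0.01 ± 0.07 (SE), the interval from −0.18 to 0.16. The array annotation gave 6 probe sets the symbol Myl6, with changes from −0.01 to 0.02. Whether some of these read near-identical copies of the gene was not tested, so the Myl6 signal is uncertain.

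Kcnmb1, the smooth muscle β-subunit of the large-conductance calcium-activated potassium channel, which limits contraction, came closest to a difference. It had 123, 108 and 131 in AR3 transgenic mice, against 84.4, 96.5 and 103 in wild-type mice. All AR3 transgenic values lay above all wild-type values, and the mice did not follow the order of the other genes. The means were 120.5 ± 11.5 in AR3 transgenic and 94.6 ± 9.5 in wild-type prostates (SD, n = 3 each). The log2 change was 0.30 ± 0.10 (SE), the interval 0.07 to 0.54, the unadjusted p 0.017 and the adjusted p 0.28 (limma), so it did not pass. Over 15 alternative settings its change stayed between 0.22 and 0.37, and the smallest adjusted p was 0.099, with array weights. Its intensities lay near the top of the background scale. Genotypes did not overlap in 2 of the 31 genes, Kcnmb1 and Mustn1, against 19.1% of all genes. In the RefSeq gene table Kcnmb1 overlaps Kcnip1, whose own probe set averaged 63.5 in AR3 transgenic and 61.5 in wild-type prostates, with a log2 change of 0.03 (adjusted p 0.95).

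**Figure D3:**
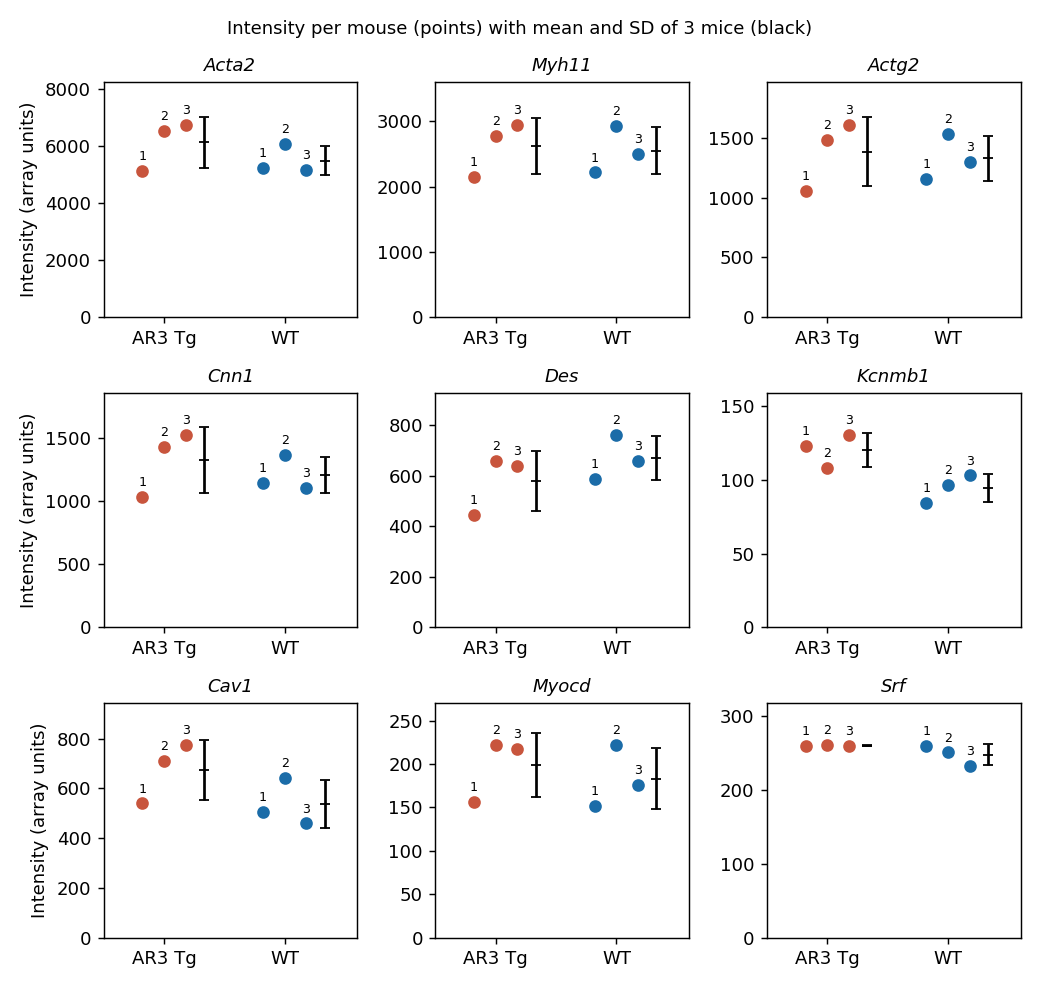
Deposited intensity of 9 genes (y axes from 0, array units) in each mouse (numbered points), with the mean and SD of 3 mice per genotype in black. Acta2, Myh11, Actg2, Cnn1 and Myocd show a low transgenic mouse 1 and a high wild-type mouse 2, while the Kcnmb1 points of the genotypes do not overlap.

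The 12 genes of the intermediate filaments, dense bodies and membrane plaques, where filaments are anchored, had a median log2 change of 0.09 with none past the threshold. Desmin (Des), the muscle intermediate filament protein, had 444, 659 and 639 in AR3 transgenic mice, against 589, 762 and 660.4 in wild-type mice. AR3 transgenic mouse 1 was the lowest of all and wild-type mouse 2 the highest. The log2 change of −0.22 ± 0.16 (SE) was the lowest of the 31 genes, with an interval from −0.60 to 0.17 and an adjusted p of 0.66. Caveolin 1 (Cav1), the coat protein of caveolae, had 539.5, 711 and 774 in AR3 transgenic mice, against 506, 644 and 459.5 in wild-type mice. Its log2 change of 0.32 ± 0.16 (SE) was the highest of the 31 genes, the groups overlapped and the adjusted p was 0.49. Cav1 is abundant in endothelium and fibroblasts too, whose marker lists are given below.

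Vinculin (Vcl), which links actin to integrin adhesions, had 690.4, 799 and 830.1 in AR3 transgenic mice, against 618, 777 and 649 in wild-type mice (log2 change 0.18 ± 0.11 SE, adjusted p 0.58). Filamin A (Flna), an actin crosslinker, had 1717, 2117 and 2361 in AR3 transgenic mice, against 1621, 2140.0 and 1762 in wild-type mice (log2 change 0.16, adjusted p 0.71). Csrp1, a LIM protein of smooth muscle, had 3224, 4052 and 4112 in AR3 transgenic mice, against 3493, 4079 and 3408 in wild-type mice (log2 change 0.05, adjusted p 0.92). In all 3 genes wild-type mouse 2 lay among the transgenic values. The log2 change was −0.15 for the integrin Itga8, a receptor on smooth muscle cells, with 127 ± 9.3 in AR3 transgenic and 143 ± 22.5 in wild-type prostates (SD, n = 3 each). It was 0.13 for synemin (Synm), a partner of desmin, 0.10 for each of the PDZ and LIM proteins Pdlim3 and Pdlim7, and 0.07 for Pgm5 (aciculin), a protein of adherens plaques. It was −0.01 for synaptopodin 2 (Synpo2), an actin-bundling protein, and 0.01 for Filip1l. The second, dimmer probe set of Filip1l had a log2 change of −0.12 (adjusted p 0.72).

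The 3 regulators of transcription and growth in the list had log2 changes between 0.07 and 0.11. Myocd, the coactivator of Srf that is largely restricted to smooth and cardiac muscle, had 156, 222 and 218 in AR3 transgenic mice, against 152, 222 and 176 in wild-type mice. Its mice fell in the order of the contractile genes, with both mice numbered 1 lowest, and the log2 change was 0.11 ± 0.17 (SE, adjusted p 0.85). Srf, present in all cell types, did not follow that order. It had 259.14, 260.3 and 259.33 in AR3 transgenic mice, against 259.35, 251 and 232 in wild-type mice. Wild-type mouse 1 lay among the nearly equal transgenic values. The log2 change was 0.07 ± 0.07 (SE), adjusted p 0.77. Mustn1, a small protein of the musculoskeletal system, had 123, 125 and 120.99 in AR3 transgenic mice, against 118, 109.8 and 120.96 in wild-type mice. The groups were separated only by the gap between the last value of each, and the log2 change was 0.07 (adjusted p 0.75).

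A wider list covered other genes of smooth muscle, with 99 measured of 108 listed. They were genes of contraction signalling, receptors, adhesion and scaffold proteins, and genes listed under transcription, which include Notch2 and Jag1. Of the 99 genes 1 was higher, 0 were lower and 98 did not pass, against 1.64% called among all genes, and the median log2 change was 0.05. By sign alone, 68 lay higher and 31 lower, against 53.9% higher among all genes. At an unadjusted p under 0.05 (limma), 10 were higher and 0 lower, against 6.91% of all genes higher. Genotypes did not overlap in 19 of the 99, against 19.1% of all genes. The gene past the adjusted threshold was Sgcb, β-sarcoglycan, a subunit of the complex that ties dystrophin to the membrane. It had 145, 147 and 151 in AR3 transgenic mice, against 97.0, 97.6 and 78.5 in wild-type mice, with no overlap. Its log2 change was 0.62 ± 0.09 (SE) and its adjusted p 0.019 (limma). The call was lost with a replicate block of mouse numbers (adjusted p 0.092), after quantile normalization (0.070), without any 1 AR3 transgenic mouse (0.081, 0.105 and 0.114 without mouse 1, 2 and 3) and without wild-type mouse 2 (0.057). Of 27 contraction signalling genes 0 passed (median 0.01), of 11 receptors 0 (0.07) and of 39 adhesion and scaffold genes 1 (0.05). Of the 22 genes listed under transcription 0 passed (median 0.09). Of these 22, 19 lay higher and 3 lower by sign alone, and genotypes did not overlap in 9, against 19.1% of all genes. Pdlim1, a LIM protein relative of Pdlim3, had the next smallest p of the 99 and was singled out after its values were seen. It had 484, 557 and 497 in AR3 transgenic mice, against 331, 363 and 400.5 in wild-type mice, so that its groups did not overlap either. The log2 change was 0.48 ± 0.10 (SE), adjusted p 0.076.

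Among the 99 wider genes, AR3 transgenic mouse 1 had the lowest transgenic value in 58 (58.6%, against 34.7% of all genes). Wild-type mouse 2 had the highest wild-type value in 47 (47.5%, against 28.6%). Wild-type mouse 1 had the lowest in 60 (60.6%, against 50.1%). Non-muscle actomyosin, the form of the same machinery that all cells carry, had 12 measured genes. Their mean log2 level was 9.93, 10.01 and 10.06 in AR3 transgenic mice, against 9.86, 9.92 and 9.81 in wild-type mice, with no overlap. By sign alone, 10 lay higher and 2 lower, against 53.9% higher among all genes. Past the threshold, 1 was higher and 0 lower, against 1.64% called among all genes. That gene was Myh10, a non-muscle myosin heavy chain, with 219, 249 and 245 in AR3 transgenic mice, against 145, 172 and 167 in wild-type mice. Its log2 change was 0.52 ± 0.09 (SE) and its adjusted p 0.045 (limma), and its values did not overlap. The call was lost without any 1 mouse (adjusted p from 0.066 without wild-type mouse 1 to 0.23 without AR3 transgenic mouse 3), with a replicate block (adjusted p 0.084) and with an added constant of 1 (0.075). The smooth muscle heavy chain Myh11 overlapped between the genotypes, as given above. Whether the changes of Myh10 and Myh11 differ was not tested.

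Marker lists of other cells in a dissected prostate are given as list means of log2(intensity + 16). For the counts past the threshold in these lists, the share among all genes was 1.64%. The 10 basal epithelial genes ran in the same order of mice within each genotype as the 31 genes, over a smaller range. They lay at 8.58, 8.63 and 8.67 in AR3 transgenic mice 1, 2 and 3, and at 8.44, 8.73 and 8.57 in wild-type mice 1, 2 and 3, with 0 past the threshold. As for smooth muscle, each mouse numbered 1 was the lowest of its genotype, and wild-type mouse 2 was the highest of the wild-type mice. Over all genes, wild-type mouse 1 was also the lowest wild-type mouse, at a mean of 7.26. The part of basal cells in the values of the 31 genes was not tested. The 15 fibroblast genes lay at 7.89, 7.94 and 8.30 in AR3 transgenic mice 1, 2 and 3, and at 7.96, 7.58 and 7.51 in wild-type mice 1, 2 and 3, with 0 past the threshold. By sign alone, 14 of these 15 lay higher and 1 lower, against 53.9% higher among all genes. At an unadjusted p under 0.05 (limma), 6 were higher and 0 lower, against 6.91% of all genes higher. The difference of the 2 group means of the fibroblast list was 0.36. Wild-type mouse 2, high for smooth muscle, was low for fibroblast genes. The 26 skeletal muscle genes lay at 6.76, 6.76 and 6.77 in AR3 transgenic mice, and at 6.69, 6.88 and 6.97 in wild-type mice, with 0 past the threshold and 6 under the background scale on every array. Of these 26, 9 lay higher and 17 lower by sign alone, against 53.9% higher among all genes. At an unadjusted p under 0.05 (limma), 0 were higher and 5 lower, against 1051 lower of all 19938 genes. The difference of the 2 group means of the skeletal muscle list was −0.09. This list bears on Des, Synm, Pdlim3, Pgm5, Tpm1, Tpm2 and Mustn1, which striated muscle also makes. The 7 seminal vesicle genes, from an organ with its own smooth muscle coat, ranged from 6.66 to 8.92 in AR3 transgenic mice and from 6.08 to 8.67 in wild-type mice. They were highest in AR3 transgenic mouse 3 and wild-type mouse 1, of which one was high and the other low for smooth muscle. One of the 7, Svs3a, was lower (log2 change −1.43, adjusted p 0.019, limma), a call lost without AR3 transgenic mouse 1 (0.082) or 3 (0.107) and without wild-type mouse 2 (0.103). By sign alone, 3 of the 7 lay higher and 4 lower, and the difference of the 2 group means of the list was 0.69. The largest change was 3.88, for Pate4, whose groups did not overlap (adjusted p 0.20, limma).

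The 10 endothelial genes lay at 7.20, 7.23 and 7.19 in AR3 transgenic mice, and at 7.10, 7.07 and 6.95 in wild-type mice, with 1 higher (Cdh5, log2 change 0.93, adjusted p 0.0096, limma). That call was lost with a replicate block (0.057) and without AR3 transgenic mouse 2 (0.063) or 3 (0.065) or wild-type mouse 2 (0.061). Cdh5 lay far above the rest of its list, whose median log2 change was 0.08, with 8 genes higher and 2 lower by sign alone. The 10 pericyte genes lay at 6.70, 6.75 and 6.78 in AR3 transgenic mice, and at 6.64, 6.68 and 6.71 in wild-type mice. None of these passed, and 4 were under the background scale on every array. The 11 luminal epithelial genes lay between 10.90 and 10.93 in AR3 transgenic mice and between 10.88 and 10.92 in wild-type mice, with 0 past the threshold. Of 5 urothelial and 7 nerve genes, 1 passed, the neuronal hydrolase Uchl1 (higher, log2 change 1.73, adjusted p 1.1e-04, limma), which passed in all 16 settings. Uchl1 lay far above the rest of the nerve list, whose median log2 change was 0.08, with 3 genes under the background scale on every array. The urothelial list had 2 genes higher and 3 lower by sign alone. Its smallest adjusted p was 0.083 (limma), for Upk1a, with a log2 change of −0.68. The part of any of these cells in the values of the 31 genes was not tested. Acta1, the skeletal α-actin, had 1553, 2035 and 2011 in AR3 transgenic mice, against 1680.5, 1954 and 1307 in wild-type mice. Its values and those of Acta2 and Actg2 may share signal between near-identical coding sequences, which was not tested here.

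**Figure D4:**
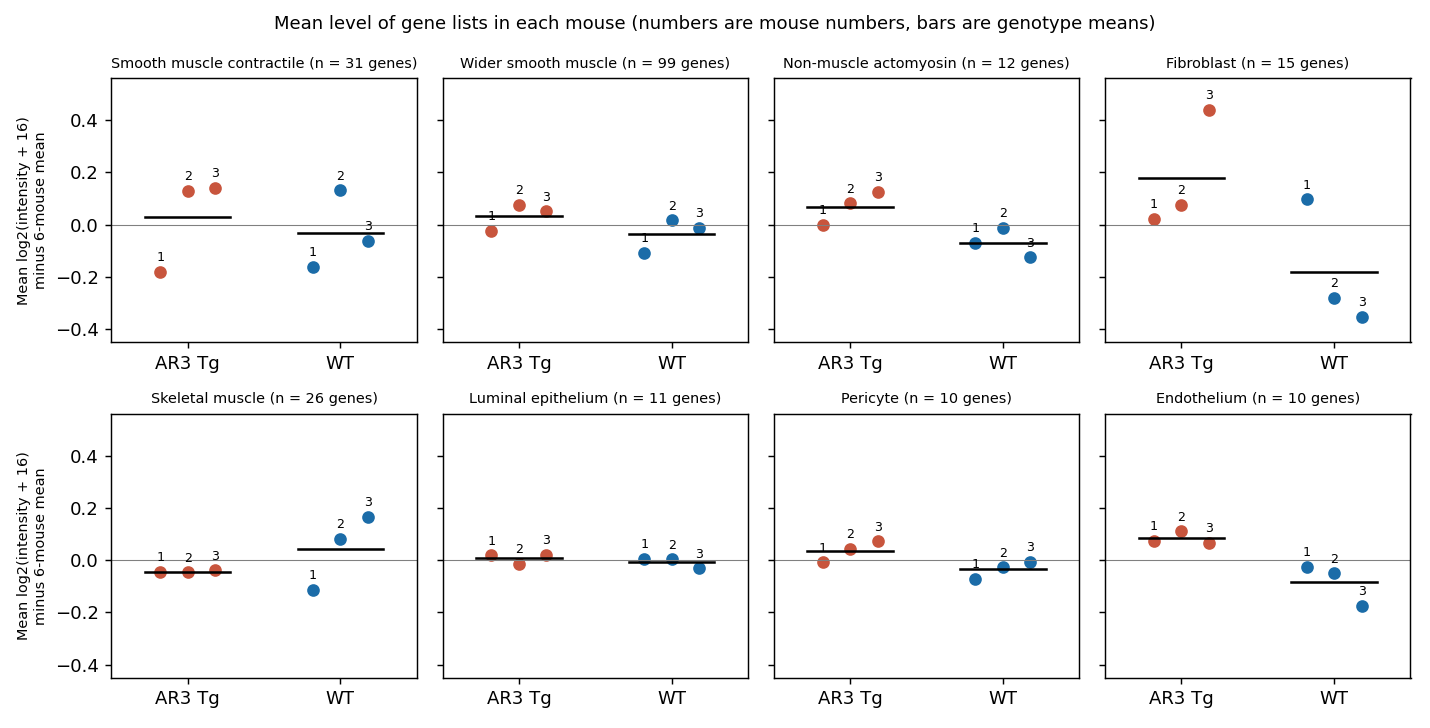
Mean log2(intensity + 16) of each gene list in each mouse, minus the mean over 6 mice (y axis), with AR3 transgenic mice left of wild-type mice; numbers are mouse numbers and bars genotype means. The 31 smooth muscle contractile genes overlap between the genotypes, and the fibroblast list shows another order of mice.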

How the data were processed

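Total RNA of dissected prostates was extracted with a column kit, treated with DNase, fragmented and biotinylated with a whole-transcript kit for Affymetrix arrays, per the labels' protocols. The deposited table holds intensities on a linear scale, 1 per probe set and array; how the authors summarised and normalized them is not given in the sources used here. Array medians ran from 94.5 to 110.8. Of 35512 probe sets, 6568 taken for controls by identifier were left out. Symbols came from the platform annotation (21789 probe sets with 1 symbol, 1621 with several, 5534 with none here), and members are named only from probe sets with 1 symbol.

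Intensities were tested as log2(intensity + 16) with limma 3.58.1 (lmFit, eBayes) in R 4.3.3, 3 against 3 arrays, no covariate, two-sided, Benjamini-Hochberg over 28944 probe sets. The added 16 understates changes of dim genes. The fit was tested on simulated data. An exact permutation test of 3 against 3 cannot go below 0.1, and was not run. The table and labels name no batch. The 3 arrays per genotype limit the precision. The labels give mouse numbers but no pairing, and none was used in the main fit. Over all probe sets, deviations of same-numbered mice correlated at −0.04, 0.05 and −0.16. With 3 mice per genotype, these values cannot decide whether same-numbered mice were paired. The members and lists were chosen with earlier results of these data known. By rule, all 31 genes are named, with values per mouse for those with the smallest p or highest mean in each role, and list members past the threshold. Promoter windows are RefSeq's.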

Additional observations from a re-analysis of the deposited data

How the results depend on the processing

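No smooth muscle contractile gene was called in any of 15 alternative settings (smallest adjusted p 0.099, limma with array weights); at an unadjusted p under 0.05 the count ran from 0 to 3. The median change ran from −0.01 to 0.17 without 1 array. It was −0.04 with array weights, with 12 genes higher and 19 lower, and 0.02 after median centring, with 19 higher and 12 lower. The array weights were 0.37, 2.77 and 0.49 for wild-type mice 1, 2 and 3, and 1.09, 1.27 and 1.45 for AR3 transgenic mice 1, 2 and 3. Wild-type mouse 2, the highest wild-type mouse in 28 of the 31 genes, thus weighed most in that setting. Of the 31 genes, 18 changed sign in at least 1 setting and 13 in none. The count of wider smooth muscle genes higher (1) was 2 with an added constant of 64, median centring, omission of the dimmest 40% of probe sets, a variance trend on intensity, array weights or averaged probe sets, where Pdlim1 joined Sgcb (adjusted p for Pdlim1 0.012 to 0.043). It was 0 after quantile normalization or with the replicate block, and 0 to 2 without 1 array.

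Over all probe sets, 305 were higher and 120 lower. A replicate block of mouse numbers gave 200 higher and 50 lower, and array weights 686 and 516. Median centring gave 314 higher and 264 lower, and a variance trend on intensity with robust estimation 454 and 224. Without 1 array, higher calls ran from 193 to 328 and lower calls from 41 to 191. The cause of these shifts was not tested. With 3 arrays per genotype, changes smaller than the intervals given above could not be resolved.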
